A study of Arabidopsis thaliana with 6 samples.

Results

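The 6 plastid sigma factor genes of Arabidopsis thaliana, SIG1 to SIG6, were followed through 6 RNA sequencing libraries of young rosette leaves. They were taken by locus: SIG1 (AT1G64860), SIG2 (AT1G08540), SIG3 (AT3G53920), SIG4 (AT5G13730), SIG5 (AT5G24120) and SIG6 (AT2G36990). All 6 were among the 33602 gene models of each count table, and all 6 passed the filter on low counts that left 21852 genes for testing.

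Chloroplasts keep a bacterial type of RNA polymerase, called PEP, whose core subunits are encoded by the plastid genes rpoA, rpoB, rpoC1 and rpoC2. The core recognises promoters only with a sigma factor, and every sigma factor is encoded in the nucleus and imported, so the nucleus can choose which plastid genes are read. SIG2 and SIG6 are the members needed for normal greening of seedlings, SIG5 is known for its response to light and stress, and SIG1, SIG3 and SIG4 are tied to smaller sets of plastid genes. A separate, phage-type polymerase encoded in the nucleus reads the rpo genes and other housekeeping genes of the plastid.

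The FLV border group is the white leaf border of FLV mutants, described as flv/dot4 knock outs and carried as stock salk_139995, a T-DNA insertion line. The WT border group is the green leaf border of wild type col0, and the WT centre group is the leaf centre of the same wild type. Each group had 2 libraries, all from untreated plants at Boyes stage 1.13 on soil at 18 to 21 °C with at most 90 µE of light. The labels do not say whether the 2 libraries of a group came from separate plants, so p-values measure only the spread between these libraries, which may be technical. Harvest time and sequencing date are not given in the sources used here. The mutant is 1 line, and the border is a dissected piece of leaf that holds several cell types, in which fewer cells of a type and less RNA per cell cannot be told apart.

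The libraries held 20448315 to 33214552 counts. Counts of a gene are given below as CPM, counts per 1e6 of the library size after TMM scaling, and as CPM per kb of gene model wherever 2 genes are compared. FLV border had TMM factors of 1.71 and 1.73, WT border of 1.22 and 1.14, and WT centre of 0.551 and 0.439. Small nuclear and nucleolar RNAs took 17.1% of the counts of WT centre library 1 and 2.16 to 9.92% of the others. In the 4 border libraries the median CPM of gene models of at least 2000 bases was 1.70 to 2.47 times that of models under 1000 bases, and in the WT centre libraries it was 0.816 and 0.609 times. The sigma factor models are 1375 (SIG4) to 2017 (SIG3) bases long. DOT4 (AT4G18750), the gene named for the mutant, had 502 and 616 counts in the libraries labelled FLV border, against 18 and 52 counts in WT border and 5 and 6 counts in WT centre. The gene said to be knocked out was therefore higher in the libraries labelled FLV border, and every direction drawn from that group below rests on the label alone.

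The count tables hold no coordinates. In the TAIR10.1 annotation of RefSeq, SIG1 lies at chr1:24097736-24100970 on the plus strand with 10 exons, and SIG2 at chr1:2703295-2706860 on the plus strand with 7 exons. SIG3 lies at chr3:19960789-19963980 on the minus strand with 9 exons, and SIG4 at chr5:4429095-4430901 on the minus strand with 4 exons. SIG5 lies at chr5:8157151-8160343 on the minus strand with 6 exons, and SIG6 at chr2:15537225-15540139 on the minus strand with 9 exons. The reference transcripts are 33 to 192 bases longer than the gene models of the count tables. The 201 bases where SIG4 overlaps AT5G13720 are on the opposite strand, and since the use of strand in counting is not given, reads there cannot be assigned with certainty.

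The 250 bases before the annotated start of 3 members in TAIR10.1 are shown for the patterns described below. SIG2 was taken as the member called between border and centre of the wild type leaf. SIG6 was taken as the member that reached a like level without a call, and SIG5 as the member of the lowest level. Capitals mark the site II element TGGGCC, searched on both strands, an element known from promoters of plant genes used in growing cells.
SIG2 (chr1:2703045-2703294, plus strand): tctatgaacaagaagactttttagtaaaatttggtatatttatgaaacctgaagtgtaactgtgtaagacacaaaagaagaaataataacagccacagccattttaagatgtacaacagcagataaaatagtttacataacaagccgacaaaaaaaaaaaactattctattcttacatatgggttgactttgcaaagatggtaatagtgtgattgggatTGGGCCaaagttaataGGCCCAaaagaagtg
SIG6 (chr2:15540140-15540389, minus strand): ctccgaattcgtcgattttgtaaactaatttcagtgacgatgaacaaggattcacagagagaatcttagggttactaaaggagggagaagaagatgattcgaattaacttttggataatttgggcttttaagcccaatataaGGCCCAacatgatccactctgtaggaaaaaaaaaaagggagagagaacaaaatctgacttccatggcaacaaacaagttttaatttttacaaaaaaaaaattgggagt
SIG5 (chr5:8160344-8160593, minus strand): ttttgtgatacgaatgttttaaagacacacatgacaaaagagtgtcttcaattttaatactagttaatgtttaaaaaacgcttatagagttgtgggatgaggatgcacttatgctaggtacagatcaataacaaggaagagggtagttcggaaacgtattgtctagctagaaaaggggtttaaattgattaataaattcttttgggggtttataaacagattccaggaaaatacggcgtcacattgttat
TGGGCC occurred in 4 of the 6 sigma factor windows, those of SIG1, SIG2, SIG4 and SIG6. It also occurred in 13.7% of all 27443 windows of the same length before annotated protein-coding genes of the nuclear chromosomes. It was searched after these sequences had been read, so the count is a description. In SIG2 the pair of matches starts 31 and 15 bases before the annotated start, one on each strand, and in SIG6 the single match starts 108 bases before it. SIG1 also held a pair, 56 and 31 bases before its start. Only the exact letters TGGGCC were searched. The SIG6 window also holds TGGGCT, which differs in the last letter, so the number of matches depends on the letters chosen. None of the 6 windows held the G-box CACGTG, which 6.49% of all windows held. The evening element AAAATATCT (2.36% of all windows) and the I-box core GATAAG (12.3%) were each found in SIG3 alone, and the CCA1 binding site AAAAATCT (6.69%) in SIG4 alone.

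SIG2 was the 1 sigma factor called between border and centre of the wild type leaf. It is the member tied to plastid transfer RNA genes and psaJ. Its level was 37.2 and 35.1 CPM in WT border, 4.8 and 4.12 CPM in WT centre, and 12.7 and 26.2 CPM in the libraries labelled FLV border. The 3 groups did not overlap: every WT border library lay above every FLV border library, and those lay above both centre libraries. Of all genes, 18.7% were lower in both FLV border libraries than in both WT border libraries. Both WT border libraries lay above both centre libraries for 30.6%. The share of genes that separate all 3 groups was not computed. SIG2 rose 8.11-fold from WT centre to WT border (95% interval 3.64 to 18; log2 fold change 3.02 ± 0.51 SE, edgeR quasi-likelihood test, Benjamini-Hochberg adjusted p = 0.0303). This was 1 of 6 sigma factors called, where 6.13% of all genes tested were called and 3.13% were called higher. It was also the 1 member with an unadjusted p under 0.05, as 29.9% of all genes had. The centre values rest on 54 and 60 counts, against 1296 and 1011 in WT border. The call was lost without WT border library 1 (2.98, adjusted p = 0.129) and without library 2 (3.06, adjusted p = 0.147), fits in which no gene at all was called.

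SIG6 had the highest level per kb of gene model among the 6 in both FLV border libraries and in WT centre library 2. It is the broad sigma factor of early chloroplast development. Its level was 19.1 and 33.1 CPM in FLV border, 26.0 and 35.0 CPM in WT border, and 17.7 and 10.8 CPM in WT centre. Both WT border libraries lay above both centre libraries, while FLV border and WT border overlapped. The border to centre difference was 1.1 ± 0.49 on the log2 scale (95% interval -0.0037 to 2.20) and did not pass (edgeR adjusted p = 0.169). The difference between FLV border and WT border was -0.22 ± 0.48 (95% interval -1.31 to 0.86, edgeR adjusted p = 0.9999).

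SIG4 differed most, by its fitted value, between FLV border and WT border, without passing the test. It is the member tied to ndhF, a subunit gene of the plastid NDH complex. Its level was 7.73 and 11.6 CPM in FLV border, 25.2 and 19.7 CPM in WT border, and 15.8 and 5.22 CPM in WT centre. The FLV border values lay below both WT border values and within the range of the centre, whose libraries stood far apart. The log2 fold change from WT border to FLV border was -1.21 ± 0.57 (95% interval -2.49 to 0.07, edgeR adjusted p = 0.927). From WT centre to WT border it was 1.1 ± 0.57 (95% interval -0.19 to 2.38, edgeR adjusted p = 0.226). AT5G13720, the gene on the other strand at its end, had 2.33 and 2.93 CPM in FLV border, 6.74 and 12 CPM in WT border, and 15.9 and 40.8 CPM in WT centre. Between FLV border and WT border that gene had the same sign as SIG4 (-1.83, edgeR adjusted p = 0.639). Between WT border and WT centre it had the opposite sign (-1.60, edgeR adjusted p = 0.102). The part of AT5G13720 in the SIG4 values was not tested.

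SIG3 showed a smaller difference of the same sign as SIG6 between border and centre. It is the member tied to psbN, a gene on the opposite strand inside the psbB operon. Its level was 6.0 and 13.3 CPM in FLV border, 9.89 and 10.3 CPM in WT border, and 6.40 and 4.19 CPM in WT centre. The WT border libraries lay above the centre libraries and inside the wide range of the FLV border libraries. The border over centre value was 0.93 ± 0.52 on the log2 scale (95% interval -0.25 to 2.12, edgeR adjusted p = 0.257), and the FLV over WT border value was -0.06 ± 0.51 (95% interval -1.22 to 1.1, edgeR adjusted p = 0.9999).

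SIG1 was not called in either comparison, and its level differed more between the 2 libraries of FLV border than between the means of the groups. It is the member tied to the photosystem I genes psaA and psaB and to the balance between the photosystems. Its level was 3.51 and 13.5 CPM in FLV border, 5.96 and 10.2 CPM in WT border, and 9.06 and 9.20 CPM in WT centre. The FLV border libraries enclosed the values of all others. The log2 differences were 0.08 ± 0.63 for FLV border over WT border (95% interval -1.35 to 1.5) and -0.18 ± 0.64 for border over centre (95% interval -1.62 to 1.26), with edgeR adjusted p = 0.9999 and 0.868.

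SIG5 was the lowest member in all 6 libraries per kb of gene model. It serves the light-responsive promoter of psbD, a photosystem II reaction centre gene. Its level was 1.16 and 3.05 CPM in FLV border, 2.98 and 3.02 CPM in WT border, and 3.73 and 3.23 CPM in WT centre, from 42 to 151 counts. The centre libraries lay just above the WT border libraries, and FLV border library 1 stood below all others. The log2 differences were -0.51 ± 0.61 for FLV border over WT border (95% interval -1.88 to 0.86) and -0.21 ± 0.61 for border over centre (95% interval -1.60 to 1.18), with edgeR adjusted p = 0.9999 and 0.838.

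**Figure D1:**
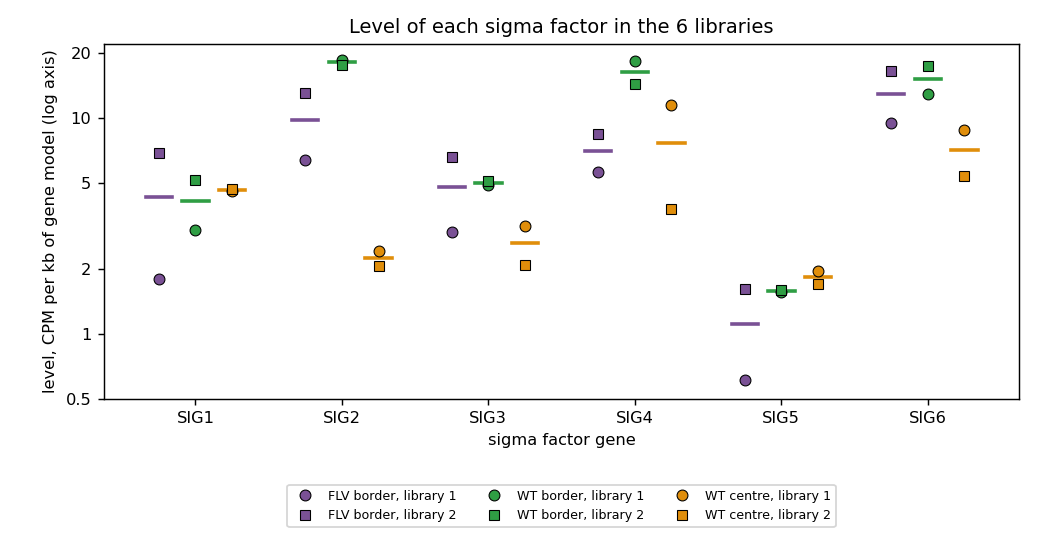
Level of each sigma factor gene in CPM per kb of gene model on a log axis, with circles for library 1, squares for library 2 and bars for the mean of the 2 libraries of a group. SIG2 separates all 3 groups, with WT border at 37.2 and 35.1 CPM before division by length, and SIG5 is lowest in every library.

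Between FLV border and WT border, 0 of the 6 sigma factors were called, by edgeR or by DESeq2, and 0 had an unadjusted p under 0.05. Of all genes tested, 0.0595% were called by edgeR (0.0549% higher and 0.00458% lower), 0.888% by DESeq2, and 5.53% had an unadjusted p under 0.05. Fitted log2 fold changes were negative for 5 of the 6 and positive for SIG1, with a median of -0.37 beside 0.02 over all genes tested. SIG2 (-0.89 ± 0.47, 95% interval -1.96 to 0.17, edgeR adjusted p = 0.977) and SIG4 were the 2 members whose FLV border libraries both lay below both WT border libraries. Of all genes, 18.7% lay apart in that direction. SIG2 and SIG4 were negative under all 18 alternatives in processing, and the other 4 members changed sign under at least 1. Between WT border and WT centre, the median was 1.01 beside -0.02 over all genes, and 4 of the 6 (SIG2, SIG3, SIG4 and SIG6) were higher in both border libraries than in both centre libraries, as 30.6% of all genes were. SIG5 alone was lower in both border libraries, as 27.2% of all genes were. The 2 comparisons share the WT border libraries, so their values are not independent.

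**Figure D2:**
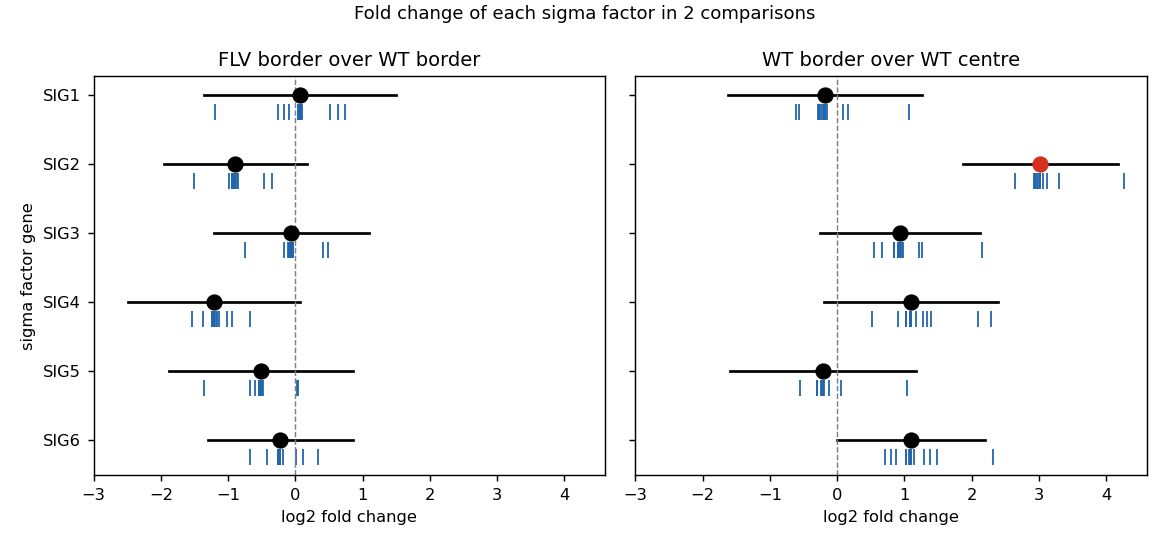
Fitted log2 fold change of each sigma factor with its 95% interval for FLV border over WT border (left) and WT border over WT centre (right); blue ticks are the values under the 18 alternatives, and red marks a called gene. SIG2 at 3.02 in the right panel is the 1 called value, and every interval in the left panel includes 0.

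The order of the levels per kb of gene model differed between the leaf pieces. In WT border the means were 18.1 ± 0.718 CPM per kb (SD, n = 2) for SIG2, 16.3 ± 2.81 for SIG4 and 15.1 ± 3.16 for SIG6, and these 3 overlapped in their libraries. Next came SIG3 at 5.0 ± 0.139 and SIG1 at 4.11 ± 1.52 CPM per kb, which overlapped each other but not the 3 above, and then SIG5 at 1.58 ± 0.0155. In WT centre SIG4 (7.65 ± 5.45) and SIG6 (7.08 ± 2.42 CPM per kb) overlapped at the top. By its mean SIG1 followed at 4.65 ± 0.0511, apart from SIG6 and SIG3 but inside the range of SIG4 (11.5 and 3.80 CPM per kb). Then came SIG3 (2.62 ± 0.774) and SIG2 (2.24 ± 0.240), which overlapped, and SIG5 at 1.83 ± 0.187 CPM per kb. In FLV border SIG6 (13 ± 4.94), SIG2 (9.75 ± 4.77), SIG4 (7.05 ± 2.01), SIG3 (4.8 ± 2.57) and SIG1 (4.32 ± 3.59 CPM per kb) each overlapped the next, and SIG5 at 1.11 ± 0.702 lay apart from SIG1.

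The share of a member in the summed level per kb of the 6 genes within a library needs no scaling between libraries. SIG2 held 31.4 and 28.8% of the sum in WT border, 23.7 and 24.7% in FLV border, and 7.42 and 10.5% in WT centre. The 3 groups did not overlap in this share, in the same order as in the SIG2 level. SIG1 held 5.11 and 8.47% in the border of wild type against 14.2 and 23.8% in its centre, and SIG5 held 2.64 and 2.59% against 6.04 and 8.61%. Both shares were higher in both centre libraries than in all 4 border libraries. The shares of a library have a fixed sum, so a share can rise where other members fall. The levels of SIG1 and SIG5 themselves were at -0.18 and -0.21 (log2, WT border over WT centre) and were not called. SIG6 held 27.1 and 27.2% in WT centre, 21.8 and 28.4% in WT border, and 35.3 and 31.0% in FLV border, where it was the largest share in both libraries. SIG4 ranged from 15.9 to 35.5% over the 6 libraries, and its share in the centre libraries, 35.5 and 19.3%, spanned both WT border values. The shares were not tested: an exact two-sided permutation test of 2 libraries against 2 cannot go below 0.333. The summed level itself was 50.2 and 101 CPM in FLV border, 107 and 113 CPM in WT border, and 57.5 and 36.7 CPM in WT centre.

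**Figure D3:**
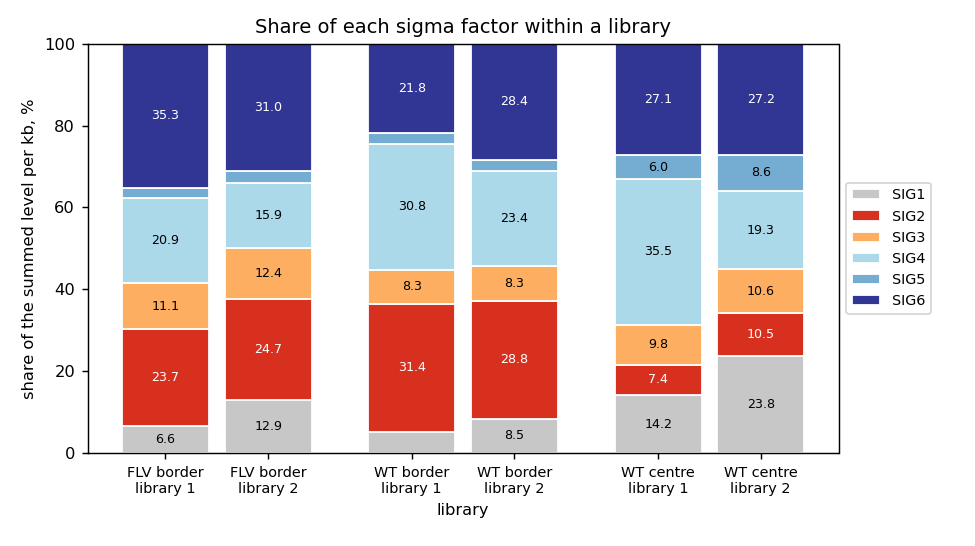
Share of each sigma factor gene in the summed level per kb of gene model of the 6 genes, as a percent, for each of the 6 libraries. The SIG2 band is 31.4 and 28.8% in WT border against 7.42 and 10.5% in WT centre, while SIG1 and SIG5 take more of the sum in the centre.

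SIG2 and SIG6, the pair needed for greening, differed in their ratio. Per kb, SIG2 over SIG6 was 1.44 (95% exact interval 1.33 to 1.57) and 1.01 (0.928 to 1.11) in WT border. It was 0.672 (0.607 to 0.745) and 0.797 (0.741 to 0.858) in FLV border, and 0.274 (0.199 to 0.372) and 0.386 (0.282 to 0.522) in WT centre. The intervals of the 3 groups did not overlap, but they cover counting error only, and the 2 WT border libraries already differed by more than theirs.

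The sigma factors of FLV border were higher in library 2 than in library 1 for all 6 members, by 1.51-fold (SIG4) to 3.84-fold (SIG1). In WT border the same ratio was 0.783 (SIG4) to 1.71 (SIG1), and in WT centre 0.330 (SIG4) to 1.02 (SIG1). SIG1 had the highest ratio of the 6 members in each group. Some clock genes differed between the libraries in one direction in all 3 groups, and these were picked after their values were seen. PRR7, a morning clock gene, was 10.4, 11.8 and 18 times higher in library 2 in FLV border, WT border and WT centre. PRR9 was 21.5, 126 and 6.19 times higher, from less than 1 CPM in library 1, and TOC1, an evening gene, was at 0.307, 0.330 and 0.479 of its library 1 level. The part of this difference between libraries in the SIG1 values was not tested.

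**Figure D4:**
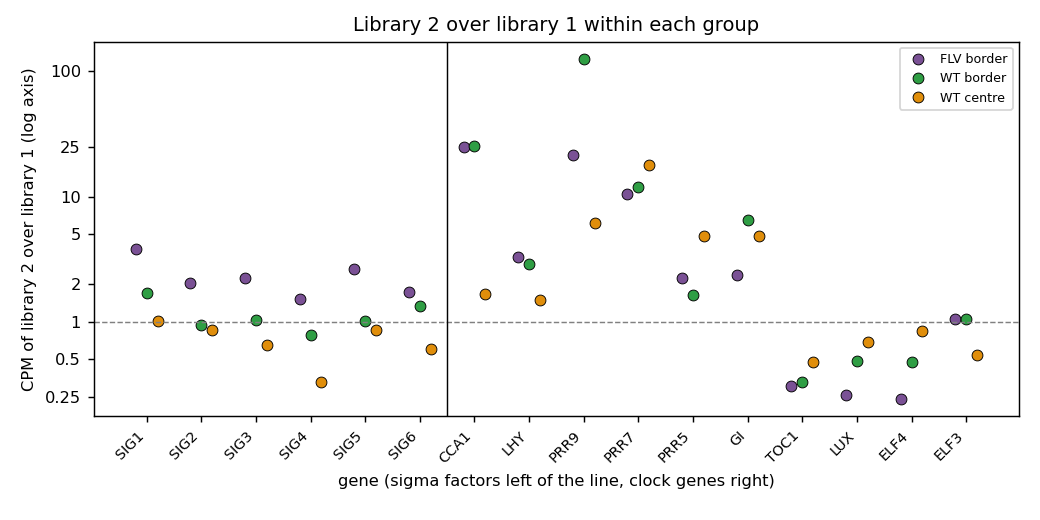
CPM of library 2 divided by CPM of library 1 within each group, on a log axis, for the 6 sigma factors (left of the line) and the 10 clock genes (right), with 1 point per group. PRR7 lies at 10.4 to 18 in all 3 groups, while SIG1 goes from 3.84 in FLV border to 1.02 in WT centre.

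Among the proteins that bind the polymerase core together with the sigma factors, the PEP-associated proteins, 6 of 12 were called higher in WT border than in WT centre, beside 3.13% of all genes, 11 of 12 were positive, and the median was 2.32. All 6 were nuclear genes: FLN1 (4.26 ± 0.64, edgeR adjusted p = 0.0282), a fructokinase-like protein, PTAC10 (3.60 ± 0.68, 0.0331), PTAC3 (3.00 ± 0.60, 0.0368), the SET-domain protein PTAC14 (2.41 ± 0.50, 0.0376), and the iron superoxide dismutases FSD2 (2.90 ± 0.72, 0.0491) and FSD3 (2.81 ± 0.54, 0.0334). PTAC14 was at 27.4 and 28.0 CPM in WT border, 4.8 and 5.63 CPM in WT centre, and 13.7 and 28.3 CPM in FLV border. These libraries stood in nearly the order of SIG2, except that FLV border library 2 reached the WT border level. With an offset that removes the trend of level on gene length in each library, 3 of the 12 were called higher and the median was 2.01, where 1.86% of all genes were called in either direction. SIG2 was called under that offset too, at 2.64 (edgeR adjusted p = 0.0472). Between FLV border and WT border 0 of the 12 were called, and the smallest p were those of TRXZ, a plastid thioredoxin (-1.32 ± 0.57, edgeR adjusted p = 0.888), and FSD3 (-0.62 ± 0.50, edgeR adjusted p = 0.9999).

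Of the 3 phage-type organelle polymerases, RPOTM, the mitochondrial enzyme, was the 1 called higher in WT border than in WT centre, beside 3.13% of all genes (3.03 ± 0.74, edgeR adjusted p = 0.0472). It was at 4.01 and 12.4 CPM in WT border and 0.977 and 1.03 CPM in WT centre, and its call was lost with the length offset. The median of the 3 was 2.05, and 0 were called between FLV border and WT border, where the median was 0.13. Of the 4 core subunit genes in the plastid genome 0 were called in either comparison. Between border and centre the smallest p were those of rpoA (-1.87 ± 0.55, edgeR adjusted p = 0.0708) and rpoC2 (0.48 ± 0.62, 0.621). Between FLV border and WT border they were those of rpoC1 (1.52 ± 0.76, edgeR adjusted p = 0.962) and rpoC2 (1.21 ± 0.62, 0.968). Both, and rpoB, were higher in both FLV border libraries, as 19.3% of all genes were.

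The 4 partners and regulators of sigma factors gave 0 calls in either comparison. SIB1 and SIB2 encode proteins that bind SIG1. SIB1 was at 145 and 47.4 CPM in WT centre and 29.6 and 11.3 CPM in WT border (-2.23 ± 0.77, edgeR adjusted p = 0.0993), and SIB2 at 35.9 and 12.8 CPM and 6.45 and 3.75 CPM (-2.25 ± 0.63, 0.0650). Both were higher in both centre libraries, as 27.2% of all genes were, and SIG1 itself stood there at 9.06 and 9.20 CPM. CSK, a chloroplast kinase that acts on SIG1, had -0.76 ± 0.46 between FLV border and WT border (edgeR adjusted p = 0.9999), and DG1, a partner of SIG6, had 0.98 ± 0.61 (0.9999). Of 8 light and greening regulators 0 were called in either comparison. CRY2 (1.42 ± 0.42, edgeR adjusted p = 0.0724) and PHYB (1.42 ± 0.45, 0.0830), a cryptochrome and a phytochrome, had the smallest p among them between border and centre. GLK1, a transcription factor of chloroplast development, had the smallest between FLV border and WT border (-2.19 ± 0.76, edgeR adjusted p = 0.757), followed by PHYB (0.84 ± 0.44, 0.977). Of 10 clock genes 0 were called; the smallest p were those of ELF3 (1.70 ± 0.46, edgeR adjusted p = 0.0591) and ELF4 (-1.02 ± 0.79, 0.403) between border and centre, and of ELF4 (2.73 ± 0.79, 0.599) and LUX (0.83 ± 0.66, 0.9999) between FLV border and WT border.

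The plastid genes tied to SIG2 did not go the way of SIG2. All 6 (psaJ, trnD, trnY, trnE, trnV and trnM) were lower in both WT border libraries than in both centre libraries, as 27.2% of all genes were. Their median was -3.32, and 2 were called lower, beside 3% of all genes: psaJ (-3.70 ± 0.91, edgeR adjusted p = 0.0483) and trnE (-2.63 ± 0.62, 0.0450). psaJ was at 1231 and 945 CPM in WT border against 21957 and 6335 CPM in WT centre, and trnE, the gene whose product also starts chlorophyll synthesis, at 73.9 and 61.7 CPM against 608 and 231 CPM. These loci are short, 5 transfer RNA genes and 1 small subunit gene, and the levels of short genes moved with the group. With the length offset the 6 values were -1.95 (psaJ) to -0.44 (trnM), with a median of -0.95 and 0 called. Plastid genes together took 24.2 and 31.4% of all counts in WT border, 41.9 and 38.5% in WT centre, and 12.8 and 24.2% in FLV border. Between FLV border and WT border 0 of the 6 were called, 5 were negative, and the median was -1.08, with trnE (-1.24 ± 0.60, edgeR adjusted p = 0.942) and psaJ (-1.49 ± 0.84, 0.9999) at the smallest p.

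The 10 plastid genes tied to SIG6 gave 0 calls in either comparison. Between FLV border and WT border all 10 were negative, with a median of -1.13 beside -0.22 for SIG6 itself; psbH (-1.44 ± 0.67, edgeR adjusted p = 0.924) and ndhK (-1.29 ± 0.69, 0.981) had the smallest p. Between border and centre 9 of 10 were negative, with a median of -1.01, where SIG6 was at 1.1. With the length offset 6 of 10 were negative, with a median of -0.55: psbH (-1.02 before, 0.28 with the offset), atpE (-0.09 and 0.77) and ndhK (-0.12 and 0.46) changed sign, and 0 were called. psbT (-4.15 ± 1.1, edgeR adjusted p = 0.0575) and psbA (-2.81 ± 1.11, 0.132), which encodes the D1 protein of photosystem II, had the smallest p there, and were at -1.94 and -2.56 with the offset.

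For SIG3, 1 of 2 plastid genes was called lower in WT border than in WT centre, beside 3% of all genes. It was psbN (-3.06 ± 0.76, edgeR adjusted p = 0.0488). With the length offset psbN was at -1.37 and not called, and reads from the psbB operon on the other strand cannot be told apart from it without the use of strand. atpH, an ATP synthase subunit gene, was at -1.85 ± 0.87 (edgeR adjusted p = 0.188). For SIG1, psaA and psaB were both positive between border and centre, at 1.94 ± 0.85 and 1.94 ± 0.85 (edgeR adjusted p = 0.166 and 0.164), where SIG1 was at -0.18. For SIG4, ndhF was at -1.68 ± 0.70 (edgeR adjusted p = 0.151), where SIG4 was at 1.1. For SIG5, psbD was at -0.76 ± 0.70 and psbC at -1.19 ± 0.83 (edgeR adjusted p = 0.482 and 0.350). Between FLV border and WT border 0 of these 7 genes were called and all 7 were negative, from -0.22 (psbC) to -1.41 (psbN).

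**Figure D5:**
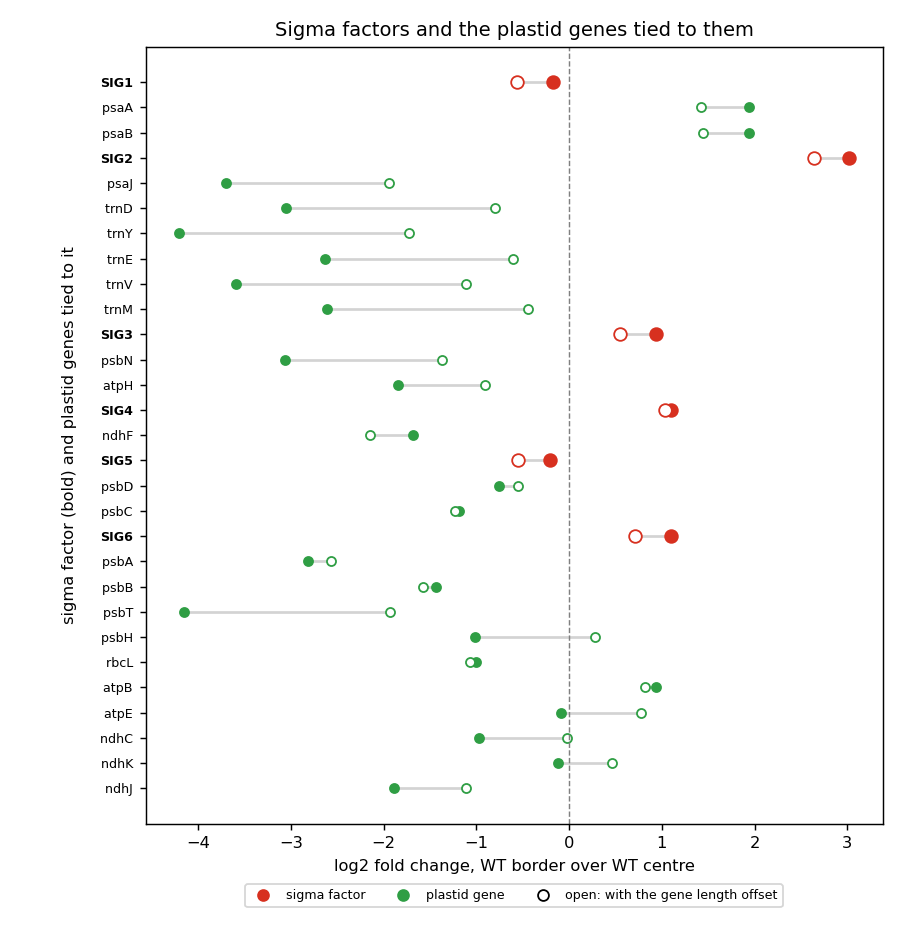
Fitted log2 fold change between WT border and WT centre (positive: higher in the border) for each sigma factor (red) and the plastid genes tied to it (green), as fitted (filled) and with the gene length offset (open), joined by a grey line. SIG2 is at 3.02 and 2.64 with the offset, while its 6 plastid genes lie left of 0 in both and move towards 0 with the offset.

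Markers of cell types moved with leaf position beside SIG2. Over all genes 3.13% were called higher in WT border than in WT centre. Of 5 cell division markers, 3 were called higher: KNOLLE (5.10 ± 0.81, edgeR adjusted p = 0.0282), FZR3 (4.34 ± 0.70, 0.0282) and CDKB2;1 (3.98 ± 0.70, 0.0303). Their list summed to 65.1 and 22.6 CPM in WT border, 3.91 and 3.78 CPM in WT centre, and 29.7 and 49.6 CPM in FLV border. The sum differed between the WT border libraries, while SIG2 was at 37.2 and 35.1 CPM in them. Of 5 epidermis markers 2 were called higher, PDF1 (7.06 ± 0.92, edgeR adjusted p = 0.0262) and ATML1 (2.98 ± 0.50, 0.0303). CER6 (-1.52 ± 0.47, edgeR adjusted p = 0.0755) and LTP1 (-1.62 ± 0.59, 0.109) were lower in both border libraries, as 27.2% of all genes were, without being called. Of 6 xylem markers 1 was called higher, CESA4 (2.31 ± 0.46, edgeR adjusted p = 0.0364), and this call was lost with the length offset (1.98, adjusted p = 0.0596). The calls of the cell division and epidermis markers were kept with the offset. The epidermis list summed to 594 and 431 CPM in WT border and 687 and 994 CPM in WT centre, and the xylem list to 48.6 and 50.1 CPM and 29.8 and 18.3 CPM. None of the 6 guard cell, 6 phloem or 7 mesophyll markers was called. The mesophyll list summed to 5730 and 14168 CPM in FLV border, 25816 and 43972 CPM in WT border, and 35089 and 149256 CPM in WT centre. No marker of this list was at 0. Its members are nuclear genes of photosynthesis. In the white FLV border, fewer mesophyll cells and less of these RNAs per cell cannot be told apart. The part of cell type makeup in the SIG2 difference was not tested.

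Genes with a pattern like that of each member over the 6 libraries were ranked by Pearson's r of log2(CPM + 1) among 10621 nuclear genes of at least 5 CPM, as a description of 6 libraries that share 3 groups. SIG2 was most like ABCC2 (r = 0.998), a vacuolar transporter, and AT3G04760 (r = 0.997), and of the listed genes most like PTAC14 (r = 0.984); 678 genes, 6.38% of the pool, had r over 0.9. SIG6 was most like SEC6 (r = 0.995), AT2G31370 (0.994) and, of the listed genes, RPOTP (0.959), the plastid phage-type polymerase, with 454 genes over 0.9. SIG3 was most like NUA (0.993), REF6 (0.983) and RPOTP (0.914), and SIG4 most like CNX5 (0.992), ZKT (0.992) and CSK (0.862). SIG5 was most like AT1G06650 (0.989), AT1G73920 (0.973) and atpE (0.902), with 26 genes over 0.9. SIG1 was most like AT3G25840 (0.943), AT1G22060 (0.931) and the clock gene LHY (0.825), and only 6 genes had r over 0.9, the fewest of the 6 members. Among the members, r was highest between SIG3 and SIG6 (0.956) and between SIG2 and SIG6 (0.898), and SIG1 was most like SIG5 (0.802).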

How the data were processed

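Stranded single-end Ion Proton reads of rRNA-depleted total RNA were counted per gene model by the authors with sam2pkm, per the file headers, and the deposited values are raw counts with the length of each model. The genome build is TAIR10 per the submitters' processing notes. The aligner, the handling of multiply mapped reads and whether strand was used are not given in the sources used here. Mapped reads were 70.9 to 88.9% of reads.

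Of the 33602 models, 32835 were matched to the TAIR10.1 annotation. The 15 rRNA loci were dropped ahead of computing library sizes. Genes were filtered with filterByExpr and scaled by TMM in edgeR 4.0.16 (R 4.3.3). A quasi-likelihood fit (glmQLFit, robust=TRUE; glmQLFTest) with 1 mean per group over all 6 libraries left 3 residual degrees of freedom, and the common biological coefficient of variation was 0.456. Adjustment of p-values was by Benjamini-Hochberg over 21852 genes, and genes under 0.05 are called. Errors of log2 fold changes are standard errors, and other errors are standard deviations of 2 libraries. Overlap of groups means overlap of their single libraries. Intervals of fold changes come from the fit and include the spread between libraries. Intervals of the SIG2 to SIG6 ratio are exact at 95% and cover counting error only. Replicates of a group differed by far more than sampling noise (chi-square over degrees of freedom from 209 to 672). Scripts were tested on simulated data. There, 100 genes of at least 5 CPM were changed 4-fold and 100 were changed 8-fold in each comparison. The 4-fold changes were called in 9% (FLV border over WT border) and 7% (WT border over WT centre) of cases. The 8-fold changes were called in 72% and 57%. Such rates depend on how many genes change, which is not known for the real data. They are therefore not the rates of the real tests, and a gene that was not called may still have changed.

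The sigma factors, 18 further lists, the tests and 17 alternatives were chosen with earlier results of these data known, and 1 alternative, which leaves out small nuclear and nucleolar RNA loci, was added after these data were seen. DESeq2 1.42.0 and limma-voom (limma 3.58.1) were among the alternatives. The text names all sigma factors and, of each other list, the called members or else up to 2 of smallest p; for likeness, the 2 nuclear genes and the 1 listed gene of highest r. DOT4, the library ratios of single clock genes, AT5G13720 and genes given again beside a sigma factor fall outside this rule. All 105 list members were in the files, and the 27 plastid members had the length of the reference gene.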

Additional observations from a re-analysis of the deposited data

How the results depend on the processing

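SIG2 was called between WT border and WT centre in 16 of 18 alternatives, at 2.64 to 4.27 on the log2 scale (adjusted p from 1.041e-05 to 0.147). No sigma factor was called between FLV border and WT border in any of the 18. With library totals and no TMM, the median of all genes moved to 0.56 and 1.24 (log2) in FLV over WT border and WT border over centre, 7798 genes were called between border and centre, 7448 of them higher (683 of 1339 otherwise), and 4 sigma factors were called: SIG2, SIG3 at 2.16, SIG4 at 2.28 and SIG6 at 2.31. Genes called between border and centre were 2055 with no filter, 300 from 4 libraries, 4167 with DESeq2, 858 with limma-voom and 406 with the length offset, and 0 to 2917 with 1 library left out; sigma factors called were then 0 to 1. Genes called between FLV border and WT border, 13 otherwise, were 23 with no filter, 194 with DESeq2, 2 with the length offset, 0 with the library number as a replicate block (1313 at an unadjusted p under 0.05), and 0 to 20 with 1 library left out. In those fits the remaining library of the group takes its spread from the other groups.

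Signs turned as follows, with no call on either side and the cause not tested. For FLV over WT border, SIG3 was 0.49, SIG5 0.036 and SIG6 0.33 with library totals. SIG1 was -0.088 with the replicate block and -0.17 with limma-voom. With 1 library left out, SIG1 ranged from -1.20 to 0.74, SIG3 from -0.75 to 0.40, SIG5 from -1.36 to 0.024 and SIG6 from -0.67 to 0.12. The turns came without FLV border library 1 (SIG3, SIG5 and SIG6), FLV border library 2 (SIG1), WT border library 1 (SIG1 at -0.26) and WT border library 2 (SIG6 at 0.0046). For border over centre, SIG1 was 1.07 and SIG5 1.03 with library totals and 0.088 and 0.061 with no filter, and SIG1 ranged from -0.61 to 0.16 with 1 library left out, turning without WT border library 1.

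The call of the psaJ and trnE targets rested on the fit: of the SIG2 targets, 0 were called from 4 libraries, with the replicate block or with the length offset. Of all genes, 1.37%, 4.94% and 1.86% were called in these fits between WT border and WT centre. The labels number the libraries but do not say that a number pairs them, and deviations of same-numbered libraries correlated at 0.458 (FLV and WT border), 0.057 (FLV border and WT centre) and 0.110 (WT border and centre). With the block, SIG2 was at 3.02 between border and centre (adjusted p = 0.0403). In counts not divided by length, the shares were 25.6% (FLV border) and 32.8% (WT border) for SIG2, 9.16% (WT border) and 11.3% (WT centre) for SIG3, 13.5% (FLV border) and 20.4% (WT border) for SIG4, 2.73% (WT border) for SIG5 and 30.1% (WT centre) for SIG6. Depth limits SIG2 in the centre (54 and 60 counts) and SIG5 (42 to 151 counts).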
